A study of Mus musculus with 6 samples.

Results

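The 10 genes described here belong to the Hippo pathway. They were taken by symbol from the 32285 genes of the matrices: the coactivators Yap1 and Wwtr1 (the gene of TAZ), the transcription factors Tead1, Tead2, Tead3 and Tead4, the kinases Lats1 and Lats2, the angiomotin family member Amotl2 and the TEAD cofactor Vgll4. All 10 were listed once and had UMIs in every library. The study profiled single EpCAM-sorted epithelial cells from ileal crypts of untreated adult C57BL/6J mice, matched for sex and age. The 3 Fpr2f/f libraries, labelled as wild type, came from mice with loxP-flanked Fpr2, the gene of formyl peptide receptor 2. The 3 Fpr2VKO libraries came from mice with the same floxed allele and Villin-Cre, which is active throughout the intestinal epithelium, so every mouse carried floxed Fpr2 and the Cre was present in the Fpr2VKO mice only. The study describes its replicates as mice, and the labels tie no library to a mouse of its own, so the p-values are taken to measure the spread between libraries.

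In the Hippo pathway, the kinases MST1 and MST2 activate LATS1 and LATS2, which phosphorylate YAP and TAZ. Phosphorylated YAP and TAZ are held in the cytoplasm by 14-3-3 proteins or degraded, and unphosphorylated YAP and TAZ enter the nucleus and bind TEAD factors at their target genes. Angiomotins bind YAP and TAZ and hold them outside the nucleus, and VGLL4 competes with them for TEAD. In the intestine the pathway is known for restraining crypt growth and for its part in regeneration after injury. Most of this control acts on proteins, by phosphorylation and location, so mRNA levels show where the components are transcribed and not how active the pathway is.

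Because TEAD factors bind the element GGAATG, which reads CATTCC on the other strand, the RefSeq start regions of the members (250 bases before to 50 after each start, build GRCm38.p6) were searched for these letters on both strands. The 8 members in the table had 12 start regions, at most 3 per member, since a gene can start at several places. The element was present in 8 of these 12 start regions (66.7%), belonging to Yap1, Wwtr1, Tead3, Lats2, Amotl2 and Vgll4, and in 14.7% of all 32851 start regions. The Wwtr1 start regions overlap and hold the same match, so the 10 matches found are 9 distinct positions. The AP-1 element TGANTCA, also searched on both strands and with no stretch of letters that holds the other element, was present in 0 of the 12 and in 7.81% of all start regions. The matches that lie outside annotated exons are printed with the element in capitals, each written 5′ to 3′ on the strand of its gene, since they are the positions at which a member's own start region carries the letters of the TEAD element.
Yap1, chr9:8004714-8004755, minus strand, upstream of the gene: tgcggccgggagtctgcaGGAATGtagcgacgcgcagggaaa
Wwtr1, chr3:57576023-57576064, minus strand, upstream of the gene: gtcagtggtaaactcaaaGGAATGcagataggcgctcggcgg
Tead3, chr17:28350964-28351005, minus strand, upstream of the gene: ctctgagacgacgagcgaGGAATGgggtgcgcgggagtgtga
Vgll4, chr6:114969262-114969303, minus strand, in an intron: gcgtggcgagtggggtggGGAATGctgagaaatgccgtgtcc
A match is a description of the letters only. The data hold no measurement of TEAD binding.

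After barcodes with at least 1000 UMIs, at least 500 genes and at most 20% mitochondrial UMIs were kept, the libraries held 17104 cells, of which 10201 were Fpr2f/f and 6903 Fpr2VKO. The mitochondrial limit alone removed 65.7% to 90.1% of the barcodes that passed the other limits. Immune-like cells numbered 333, and the 16771 epithelial cells were assigned to stem-like (938), transit-amplifying (TA)-like (2936), enterocyte-like (1660), Paneth-like (1086), goblet-like (1920), enteroendocrine-like (445) and tuft-like (360) classes by marker genes, with 7426 cells (44.3%) left unnamed. Of the class markers, Neurod1 of the enteroendocrine list had no UMI in any library and all other markers were detected. Cells of the classes differed in depth, from a median of 2707 UMIs per tuft-like cell to 26677 per stem-like cell. Of 16980 distinct cell barcodes, 123 occurred in more than 1 library. Fpr2 had 0 UMIs in every library, also outside cells, which allows up to 0.0573 to 0.113 UMIs per 1000000 UMIs in the cells of a library, so the deletion could not be checked in these counts. A level is given below as CPM, the UMIs of a gene per 1000000 UMIs of all cells of a class in a library, as the mean ± SD of the 6 libraries. Since the cells were named with other genes, and the 10 members and the pathway genes were left out of clustering, the levels by class are descriptions and carry no test.

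Yap1 RNA had its highest mean in stem-like cells and its lowest means in enteroendocrine-like and Paneth-like cells. Its level in stem-like cells was 51.4, 55.1 and 64.6 CPM in the Fpr2f/f libraries and 57.6, 73.0 and 69.5 CPM in the Fpr2VKO libraries (61.9 ± 8.5 CPM, SD, n = 6). These values were above those of TA-like cells (52.4 ± 4.1 CPM) in 5 of 6 libraries, and the ranges of the classes overlapped. Goblet-like cells had 48.2 ± 6.7 CPM, enterocyte-like cells 39.4 ± 4.5 CPM and tuft-like cells 35.4 ± 7.5 CPM. Each of these neighbours in the order overlapped with the next, so the order among them is not resolved beyond the spread between libraries. The lowest levels were in enteroendocrine-like (19.1 ± 8.9 CPM) and Paneth-like cells (12.3 ± 4.9 CPM), both below stem-like cells in 6 of 6 libraries. Paneth cells fill their RNA with transcripts of antimicrobial peptides. The 9 Paneth markers summed to 468122 CPM in Paneth-like cells, and the markers of all classes together took 48.9% of their UMIs. Without the UMIs of class markers in the totals, Yap1 was at 24.0 ± 9.0 CPM in Paneth-like and 20.2 ± 9.3 CPM in enteroendocrine-like cells, which turned the order of these classes.

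Wwtr1 was sparse, with 571 UMIs in all epithelial cells. Its highest mean was in goblet-like cells, with 6.36, 3.64 and 3.53 CPM in the Fpr2f/f libraries and 8.93, 8.55 and 4.13 CPM in the Fpr2VKO libraries (5.85 ± 2.46 CPM, n = 6). Goblet-like cells lay above tuft-like cells (3.62 ± 2.03 CPM, 7 UMIs in all) in 5 of 6 libraries and above enterocyte-like cells (1.09 ± 1.31 CPM) in 6 of 6. Stem-like cells came next at 3.57 ± 3.71 CPM, with an SD as large as the mean because 1 library was far above the others. No neighbours in the order were separated in all libraries. Over all epithelial cells Wwtr1 had 2.45 ± 1.07 CPM, the same level as in free RNA (2.46 ± 0.72 CPM), which was measured in barcodes with fewer than 100 UMIs.

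Among the TEAD factors, Tead1 had its highest levels of the named classes in enteroendocrine-like and tuft-like cells, the sensory classes of the epithelium. Enteroendocrine-like cells had 93.0, 171.0 and 107.6 CPM of Tead1 in the Fpr2f/f libraries and 95.03, 89.2 and 83.0 CPM in the Fpr2VKO libraries (106 ± 33 CPM, n = 6). The value of Fpr2f/f replicate 2 was the highest by far, and the other 5 libraries lay within 83.0 to 107.6 CPM. Tuft-like cells followed at 93.1 ± 35.2 CPM, below enteroendocrine-like cells in 5 of 6 libraries with overlapping ranges. Both classes were above TA-like (57.4 ± 9.6 CPM) and stem-like cells (54.0 ± 3.9 CPM) in 6 of 6 libraries, while TA-like and stem-like cells did not differ beyond their spread. Goblet-like (45.6 ± 2.4 CPM) and enterocyte-like cells (44.4 ± 11.5 CPM) overlapped, and Paneth-like cells were lowest at 17.2 ± 3.3 CPM. The largest enterocyte-like cluster (1310 cells) had 75.3 CPM of Tead1 over all libraries. When the CPM of single cells were averaged, enterocyte-like cells had 68.0 CPM, above TA-like (59.9 CPM) and stem-like cells (53.1 CPM). The place of enterocyte-like cells in the order thus depends on how cells are weighted. Class markers made up 48.9% of the UMIs of Paneth-like cells, and without them in the totals Tead1 was at 33.6 ± 6.4 CPM in Paneth-like and 45.2 ± 11.7 CPM in enterocyte-like cells, within the spread.

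Tead4 had its highest level in goblet-like cells in every library. Goblet-like cells had 6.81, 9.26 and 11.99 CPM in the Fpr2f/f libraries and 6.63, 7.70 and 5.78 CPM in the Fpr2VKO libraries (8.03 ± 2.27 CPM, 181 of 363 epithelial UMIs). Every one of these values was above the enteroendocrine-like values, which came next (2.14 ± 1.75 CPM), and the ranges did not overlap. Tuft-like cells had 0 UMIs of Tead4, which allows up to 1.55 CPM over their 6 libraries together. The remaining classes had 0.58 to 1.60 CPM.

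Tead3 was at a like level in most classes, from 7.76 ± 1.25 CPM in goblet-like to 12.6 ± 6.3 CPM in tuft-like cells, and its neighbours in the order overlapped. Only Paneth-like cells, at 2.02 ± 0.64 CPM, were below all other classes without overlap with the next one, and without the marker UMIs in the totals they were at 3.93 ± 1.16 CPM. In no library was the Tead3 level of epithelial cells (9.48 ± 1.32 CPM) above that of free RNA (11.6 ± 1.7 CPM). Tead2 was sparse in the named classes, at 3.503 ± 1.29 CPM in stem-like cells and 3.87 ± 4.67 CPM in tuft-like cells, where it rested on 9 UMIs and was 0 in 3 libraries. The other classes were at 1.44 CPM or lower.

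Of the named classes Lats1 was highest in enteroendocrine-like cells, with 107.8, 98.1 and 142.2 CPM in the Fpr2f/f libraries and 86.7, 125.1 and 109.4 CPM in the Fpr2VKO libraries (112 ± 20 CPM, n = 6). All 6 values were above the highest value of any other named class. Stem-like (66.9 ± 11.3 CPM), goblet-like (65.5 ± 11.6 CPM), TA-like (64.3 ± 7.8 CPM), tuft-like (58.4 ± 16.9 CPM) and enterocyte-like cells (58.4 ± 8.4 CPM) could not be ordered beyond their spread, and Paneth-like cells were lowest at 24.7 ± 3.8 CPM. Without class markers in the totals Lats1 was at 48.5 ± 7.4 CPM in Paneth-like, 59.2 ± 17.2 CPM in tuft-like and 59.5 ± 8.4 CPM in enterocyte-like cells, which do not differ beyond their spread. Lats2 was sparse in the epithelium, with 444 UMIs. Its mean was highest in enterocyte-like cells (6.16 ± 2.52 CPM), followed by enteroendocrine-like cells (3.65 ± 2.39 CPM) with an overlapping range. The Lats2 gene shares 42.4% of its exon bases with Gm49361 on the same strand, which is not listed in the matrices, so reads of the shared part cannot be assigned to 1 of the genes.

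Amotl2, an angiomotin, had higher class means in enteroendocrine-like, enterocyte-like and goblet-like cells than in the proliferating classes. It had 16.99 ± 8.18 CPM in enteroendocrine-like, 15.4 ± 3.1 CPM in enterocyte-like and 11.1 ± 2.5 CPM in goblet-like cells, against 3.04 ± 0.96 CPM in TA-like, 2.56 ± 0.89 CPM in stem-like and 2.55 ± 0.58 CPM in Paneth-like cells. In enterocyte-like cells the values were 18.2, 19.3 and 15.7 CPM in the Fpr2f/f libraries and 14.9, 10.6 and 13.8 CPM in the Fpr2VKO libraries, and every one of them exceeded the highest TA-like value of 4.95 CPM. Enteroendocrine-like cells were above enterocyte-like cells in 3 of 6 libraries, so these classes are not ordered. The mean level of Vgll4 was 105 ± 15 CPM in stem-like and 95.04 ± 8.96 CPM in TA-like cells. It was 73.3 ± 4.4 CPM in goblet-like, 58.7 ± 36.0 CPM in tuft-like and 48.7 ± 6.1 CPM in enteroendocrine-like cells. The lowest means were 39.98 ± 12.18 CPM in enterocyte-like and 16.8 ± 4.1 CPM in Paneth-like cells. Stem-like cells were above TA-like cells in 6 of 6 libraries although the ranges overlapped, and TA-like and goblet-like cells did not overlap. From goblet-like to enterocyte-like cells each class overlapped with the next, so this part of the order is not resolved. The largest enterocyte-like cluster (1310 cells) had 77.2 CPM of Vgll4 over all libraries. When the CPM of single cells were averaged, enterocyte-like cells had 63.5 CPM, above enteroendocrine-like (52.1 CPM) and tuft-like cells (51.5 CPM). The TA-like class pooled 3 unlike clusters, in which Vgll4 over all libraries was at 143.9 CPM (1248 cells), 88.1 CPM (1016 cells) and 49.6 CPM (672 cells), so the order of stem-like and TA-like cells does not hold for every cluster. Tead1 was at 85.2, 52.6 and 28.8 CPM in the same clusters, against 123.8 and 78.6 CPM in the 2 enteroendocrine-like clusters. Without class markers in the totals Vgll4 was at 32.9 ± 7.5 CPM in Paneth-like and 40.8 ± 12.4 CPM in enterocyte-like cells, within the spread.

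The plot of the 10 genes by class shows points of both groups mixed within most classes, and the low position of Paneth-like cells for Yap1, Tead1, Tead3, Lats1 and Vgll4. Over the 42 sums of 7 classes and 6 libraries, Pearson's r of log2(CPM + 1) was 0.805 between Yap1 and Vgll4 and 0.798 between Tead1 and Lats1. These sums share libraries and the low Paneth-like levels, so the correlations are descriptions. By the same measure, among 8203 genes of at least 10 CPM, the genes most like Yap1 were Suclg2 (r = 0.937), Rpl39 (0.928) and Tmsb4x (0.916). Those most like Tead1 were Kmt2a (0.961), Msi2 (0.943) and Gnai2 (0.939), those most like Tead3 were 2310011J03Rik (0.911), Nudt13 (0.908) and Paxbp1 (0.903), and those most like Lats1 were Actr10 (0.943), Vps54 (0.942) and Atp6v1a (0.937). Vgll4 was most like Psmg3 (0.923), Idh2 (0.910) and Spata13 (0.907), and Amotl2 was most like Stat3 (0.830), Cd55 (0.828) and Txnip (0.820), with lower values than the other members.

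The highest mean levels of Amotl2, Tead1, Tead2 and Lats1 among epithelial cells were found outside the named classes, in a cluster of 180 unnamed cells (1.07% of the epithelial cells, 16 to 44 per library). Its leading genes included Ooep, Neurog3, Slc39a2, Zcchc12, Nefm, Ghrl, Epb42, Isl1 and Mboat4. Neurog3 is the transcription factor that starts the enteroendocrine fate, and Isl1 is a transcription factor of that lineage. The cluster had 1306 CPM of Neurog3 against 233 CPM in enteroendocrine-like cells, and only 230 CPM of the granule protein gene Chga against 4346 CPM. It kept no class name because the mean fold of the enteroendocrine markers was under the limit, and it is called the Neurog3-led cluster here. This cluster was singled out after its values were seen.

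In the Neurog3-led cluster Amotl2 reached 125.5, 226.3 and 168.0 CPM in the Fpr2f/f libraries and 305.0, 253.4 and 142.0 CPM in the Fpr2VKO libraries (203 ± 70 CPM, n = 6). The other epithelial cells of the same libraries had 6.44 ± 1.16 CPM, so the cluster was 21.2 to 45.4 times higher within a library. The cluster held 26.0% of all epithelial Amotl2 UMIs (512 of 1971) with 1.04% of all epithelial UMIs. Amotl2 was detected in 92 of the 180 cells (51.1%), against 60 of the 445 enteroendocrine-like cells (13.5%) at a like depth (medians of 11552 and 12511 UMIs per cell), and in 6 of 333 immune-like cells (1.80%) at a median of 5887.

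Tead2 was even more concentrated in these cells. It had 25.1, 121.9 and 92.6 CPM in the Fpr2f/f libraries and 97.9, 49.9 and 36.4 CPM in the Fpr2VKO libraries (70.6 ± 38.8 CPM), against 1.24 ± 0.27 CPM in the other epithelial cells. All 6 libraries showed it, with ratios from 25.8 to 87.5, although the level varied about as widely within a group as over all 6 libraries. Under the 10% mitochondrial limit the cluster held only 56 cells, 2 to 15 per library, and the lowest library had 0 CPM of Tead2 and of Amotl2. The cluster held 38.2% of the epithelial Tead2 UMIs (173 of 453). Tead2 was found in 72 of 180 cells (40%) and in 5 of 445 enteroendocrine-like cells (1.12%).

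Tead1 was at 222 ± 42 CPM in the Neurog3-led cluster, from 171 to 279 CPM, 3.97 to 7.20 times the level of the other epithelial cells of the same library (42.6 ± 3.8 CPM). Lats1 was at 122 ± 12 CPM and Vgll4 at 91.7 ± 7.8 CPM, both above the other cells in 6 of 6 libraries. The Lats1 values, from 113 to 145 CPM, overlapped with those of enteroendocrine-like cells. The coactivator gene Yap1 was lower, at 22.7 ± 7.1 CPM, below the other cells (41.5 ± 3.1 CPM) in 6 of 6 libraries. Tead3, at 4.92 ± 3.71 CPM on 12 UMIs, was also below the other cells (9.53 ± 1.30 CPM) in 6 of 6 libraries. Wwtr1 had 1 UMI in the cluster, and the 5 libraries with 0 UMIs allow 3.77 to 10.9 CPM, so a level below that of the other cells was not detectable at this depth. Amotl2 is also known from blood vessels, and the 5 endothelial markers summed to 18 UMIs in the cluster with Cdh5, Plvap and Cldn5 at 0, from 3.48 to 22.8 CPM in the Fpr2f/f and 0 to 5.02 CPM in the Fpr2VKO libraries. The 10 immune markers summed to 24 UMIs (3.64 to 20.6 CPM per library), with Cd3g, Cd8a and Gzmb at 0, enteric glia markers to 6 UMIs, and fibroblast and smooth muscle markers to 3 UMIs each.

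**Figure D1:**
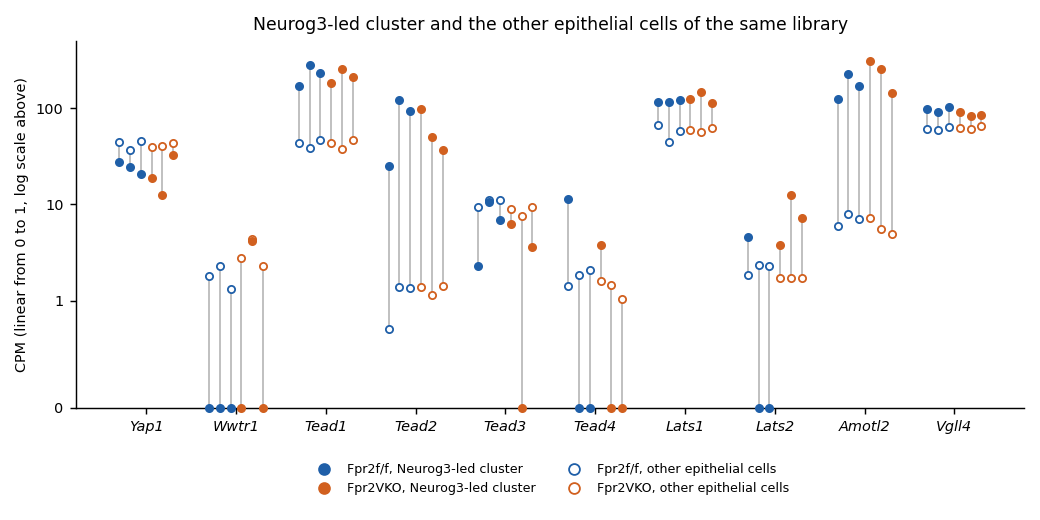
For each of the 10 genes on the horizontal axis, filled points give the level in the Neurog3-led cluster and open points the level in the other epithelial cells of the same library, joined by a line, in CPM on an axis that is linear from 0 to 1 and logarithmic above. Amotl2 and Tead2 lie far above the other cells in all 6 libraries (means of 203 against 6.44 and 70.6 against 1.24 CPM). Yap1 lies below them in all 6, as do the sparse Tead3 (12 UMIs in the cluster) and Wwtr1 (1 UMI).

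In the plot of the Neurog3-led cluster, the filled points of both groups interleave for Amotl2, Tead2 and Tead1. Of the 3 YAP and TAZ target genes of highest level, Gadd45a, a stress-induced gene, had 995 ± 330 CPM in the cluster, 328 ± 81 CPM in enteroendocrine-like cells and 77.3 ± 14.2 CPM over all epithelial cells. Crim1 (34.4 CPM in the cluster, 49.5 CPM over all epithelial cells) and Dock5 (41.3 and 44.7 CPM) did not share this pattern.

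The comparison of Fpr2VKO with Fpr2f/f asked whether the members' RNA differed without epithelial Fpr2. None of the 10 members passed the threshold of an adjusted p of 0.05 in any class by edgeR's quasi-likelihood test. Over all epithelial cells 0 of 10 members were called and 0.0421% of all 16629 genes tested. In stem-like cells 0 of 8 tested members were called (0.221% of all genes), in TA-like cells 0 of 9 (0.174%), in enterocyte-like cells 0 of 7 (0.0197%), in Paneth-like cells 0 of 7 (0.0104%), in goblet-like cells 0 of 8 (0.149%) and in enteroendocrine-like cells 0 of 6 (0.0107%). Tuft-like cells had 0 of 4 called (0.0436%), and the unnamed cells had 0 of 10 (0.00755%). In the Neurog3-led cluster 0 of 5 were called (0.0763%). Calls were this rare among all genes, so a count of 0 among the members is near the background and is not a result about them. At an unadjusted p under 0.05 there were 8 results among the 69 tests in the 9 groups of cells other than this cluster (11.6%), against 8.30% of the 97241 tests of all genes in the same groups, so this count too is near the background. A further 21 pairs of member and class had too few UMIs to test, and DESeq2 also called 0.

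Over all epithelial cells the fold changes of the abundant members were close to 0. The log2 fold change (Fpr2VKO minus Fpr2f/f, with its SE) of Yap1 was 0.01 ± 0.11 (95% interval −0.22 to 0.24), that of Tead1 0.05 ± 0.11 (−0.19 to 0.28), that of Vgll4 0.07 ± 0.10 (−0.15 to 0.29) and that of Lats1 0.13 ± 0.12 (−0.14 to 0.40). The intervals thus left room for changes up to about the size of 0.40 on the log2 scale. With 1 library left out the fold change ranged from 0.017 to 0.24 for Lats1 and from 0.041 to 0.11 for Vgll4. The mix of cells differed between the groups in these sums: the 9 stem markers summed to 956 to 1301 CPM in the Fpr2f/f and to 2144 to 2351 CPM in the Fpr2VKO libraries. Depth separated the groups too, with medians of 3009 to 4586 UMIs per epithelial cell in the Fpr2f/f and 6212 to 6917 in the Fpr2VKO libraries, and of 7028 to 11514 against 24170 to 33552 per Paneth-like cell. The mitochondrial limit removed 65.7% to 78.0% of barcodes in the Fpr2f/f and 76.1% to 90.1% in the Fpr2VKO libraries. The part of these differences in the members' values was not tested.

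**Figure D2:**
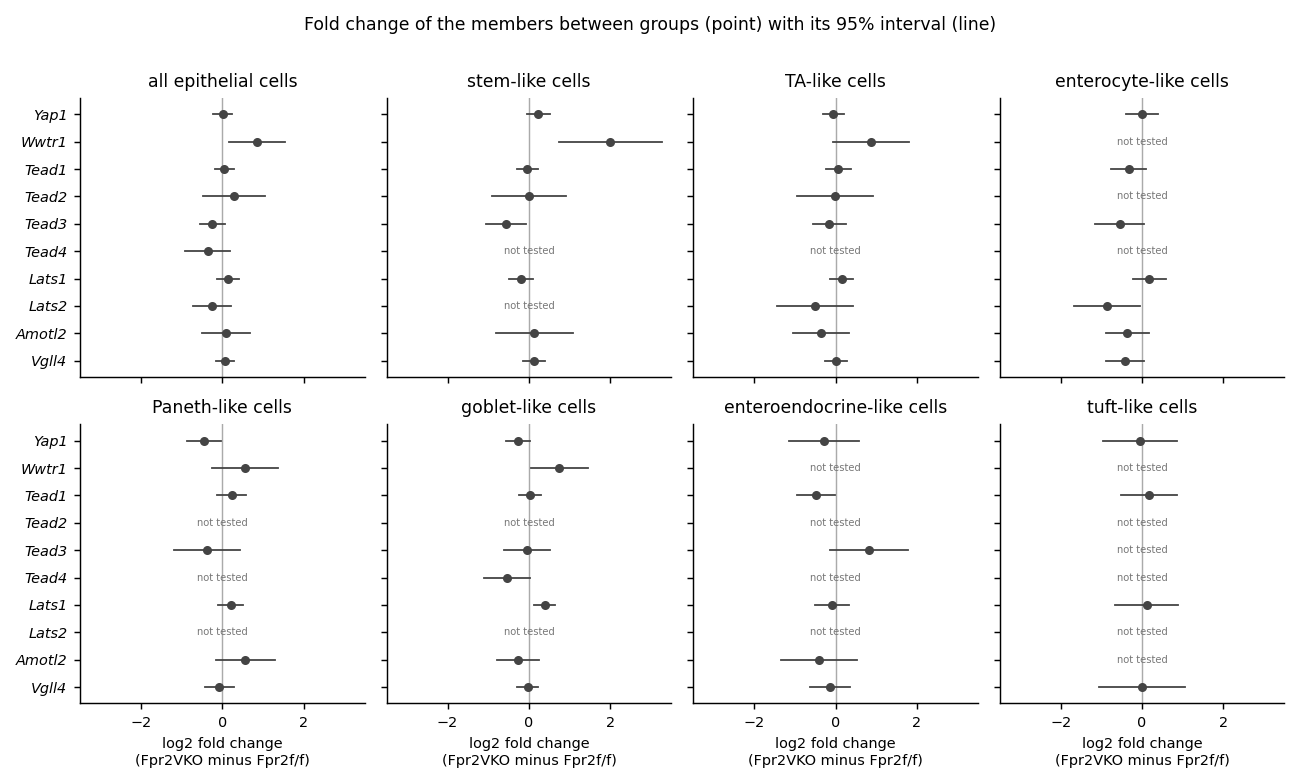
Each panel plots 1 group of cells; points are log2 fold changes of Fpr2VKO minus Fpr2f/f for the 10 genes on the vertical axis, and lines their 95% intervals from edgeR, with genes that had too few UMIs marked as not tested. Most intervals include 0, those of Wwtr1 in all epithelial, stem-like and goblet-like cells and of Lats1 in goblet-like cells lie above it, those of Tead1 in enteroendocrine-like, Tead3 in stem-like, Yap1 in Paneth-like and Lats2 in enterocyte-like cells lie below it, and no gene has an adjusted p under 0.05.

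In the plot of fold changes, intervals are narrow for Yap1, Tead1, Lats1 and Vgll4 and wide for the sparse members. Wwtr1 in stem-like cells had the largest log2 fold change between the groups of any member tested in a class. In stem-like cells it was at 2.09, 1.46 and 0.77 CPM in the Fpr2f/f libraries (7, 5 and 3 UMIs) and at 2.81, 10.9 and 3.38 CPM in the Fpr2VKO libraries (17, 54 and 13 UMIs). The groups did not overlap, and Fpr2VKO replicate 2 was far above the other 5 libraries, with its 54 UMIs spread over 27 of 228 cells. The log2 fold change was 2.01 ± 0.59 (95% interval 0.75 to 3.26), with an unadjusted p of 0.0037 and an adjusted p of 0.273. Without Fpr2VKO replicate 2 it was 1.10 with an adjusted p of 0.836, and under the 40% mitochondrial limit 1.32 with an adjusted p of 0.774. Without the filter on low counts the adjusted p was 0.0030, and with the replicate number as a block the fold change was 1.87 with an adjusted p of 0.033. Endothelial markers in stem-like cells summed to 0.766 to 2.63 CPM in the Fpr2f/f and 2.64 to 4.17 CPM in the Fpr2VKO libraries, with Kdr and Cldn5 at 0, and fibroblast markers to at most 0.875 CPM with 7 UMIs in all. Enteric glia markers summed to 0.896 to 2.55 CPM in the Fpr2f/f and 2.48 to 3.63 CPM in the Fpr2VKO libraries (60 UMIs), with Sox10 at 0. Their part in the result was not tested.

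The direction of Wwtr1 was the same in goblet-like cells (log2 fold change 0.75 ± 0.35, adjusted p = 0.509), in TA-like cells (0.87 ± 0.44, adjusted p = 0.688) and over all epithelial cells (0.85 ± 0.31, 95% interval 0.17 to 1.53, adjusted p = 0.476). Over all epithelial cells the values were 1.78, 2.25 and 1.32 CPM in the Fpr2f/f and 2.72, 4.40 and 2.24 CPM in the Fpr2VKO libraries. Fpr2VKO replicate 2 was again the highest and the lowest Fpr2VKO value was below the highest Fpr2f/f value. The free RNA of the same libraries had 2.53, 2.82 and 1.61 CPM of Wwtr1 in the Fpr2f/f and 2.11, 3.65 and 2.02 CPM in the Fpr2VKO libraries, with Fpr2VKO replicate 2 highest there too. Without Fpr2VKO replicate 2 the log2 fold change of Wwtr1 was 0.46 over all epithelial cells and 0.37 in TA-like cells. In the unnamed cells the Wwtr1 fold change was −0.22 ± 0.56, and in tuft-like cells, which had too few UMIs to test, the group means were 3.67 CPM in Fpr2f/f and 3.58 CPM in Fpr2VKO. Enteroendocrine-like cells, also too sparse to test on 14 UMIs, had group means of 1.46 CPM in Fpr2f/f and 3.04 CPM in Fpr2VKO. None of these Wwtr1 differences passed the threshold.

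**Figure D3:**
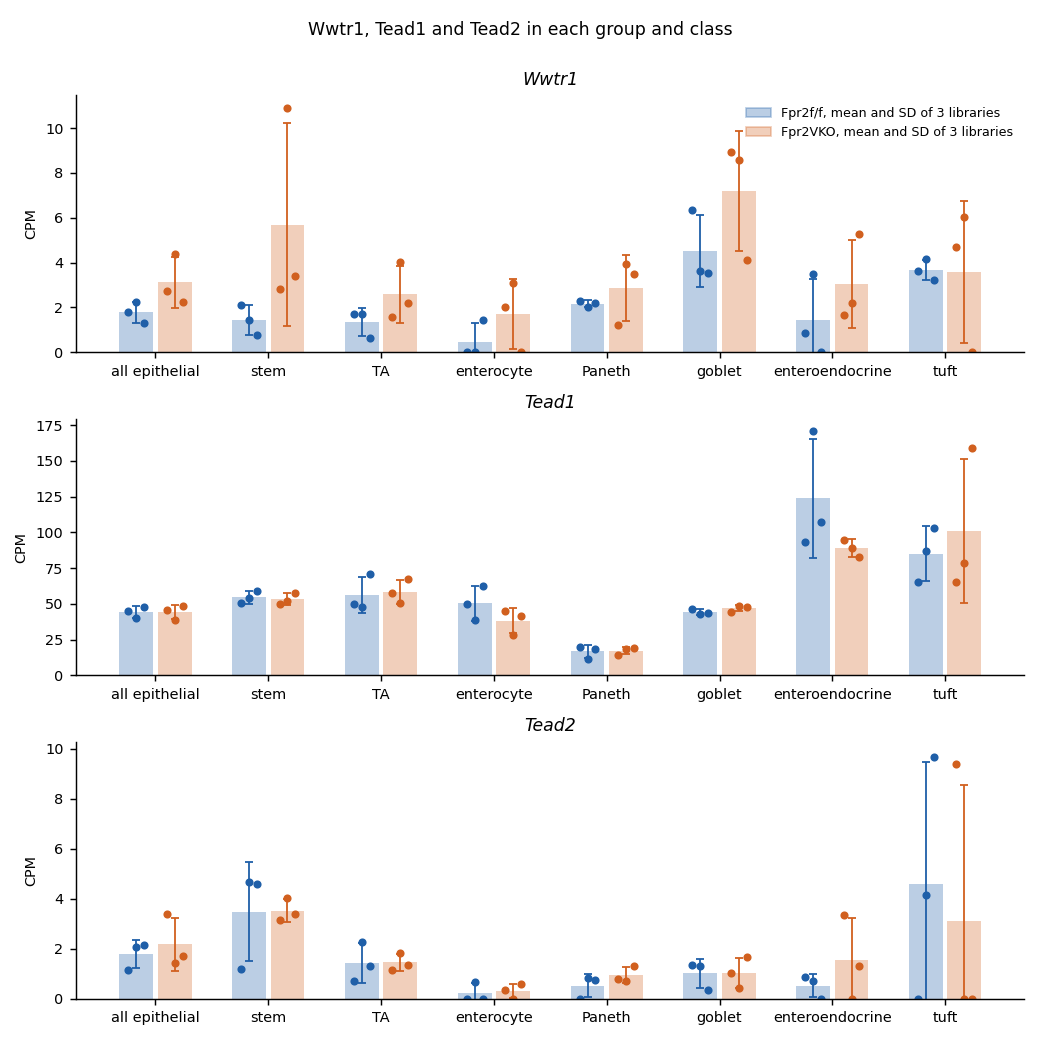
The vertical axis of each panel is the level of 1 gene in CPM from 0, and the horizontal axis all epithelial cells and the 7 named classes; bars and error bars are the mean and SD of 3 libraries of a group, and points the libraries. The tall Wwtr1 point in stem-like cells is Fpr2VKO replicate 2 at 10.9 CPM, and the tall Tead1 point in enteroendocrine-like cells is Fpr2f/f replicate 2 at 171.0 CPM.

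The plot of Wwtr1, Tead1 and Tead2 by group shows how far single libraries carry a group mean. Tead1 in enteroendocrine-like cells had a log2 fold change of −0.48 ± 0.22 (95% interval −0.96 to −0.01) with an unadjusted p of 0.046 and an adjusted p of 0.999. Only 1 of the Fpr2VKO values, 95.03 CPM, lay above the lowest Fpr2f/f value of 93.0 CPM, and leaving out single libraries gave fold changes from −0.67 to −0.13. Tead2 in tuft-like cells, on 9 UMIs and not tested within that class, had group means of 4.61 CPM in Fpr2f/f and 3.13 CPM in Fpr2VKO. Enteroendocrine and tuft cells, beside stem and TA cells, were among the clusters in which the study looked at Hippo genes. It reported lower Tead1 in enteroendocrine, lower Tead2 in tuft and lower Wwtr1 in both cell types without epithelial Fpr2. Here the Wwtr1 group means in enteroendocrine-like cells, on 14 UMIs, ran the other way (1.46 CPM in Fpr2f/f and 3.04 CPM in Fpr2VKO). For stem and TA cells the study reported no significant effect on Tead1, Tead2 and Wwtr1. By RT-qPCR it also reported lower key genes of the Hippo and other pathways in Fpr2VKO organoids and small intestinal crypts. In organoids given the FPR2 agonist MMK-1 it reported higher Tead1, Tead2 and Wwtr1. Over all epithelial cells here, Wwtr1 had means of 1.79 CPM in Fpr2f/f and 3.12 CPM in Fpr2VKO, the other direction, and did not pass the threshold. Per its methods the study compared single cells, with limits on the P value and on the fold change. Here sums per library were compared by adjusted p, in fewer cells and in classes drawn by other rules, so the results are not like for like. The Neurog3-led cluster, with the highest Tead1 and Tead2 means, is not in the enteroendocrine-like class here. Since the study named an effect in some classes and not in others, the difference of the group effect between classes was tested. Between enteroendocrine-like and TA-like cells it was −0.53 for Tead1 (95% interval −1.08 to 0.02) and 0.97 for Tead3 (−0.03 to 1.96), with an adjusted p of 1 for every member tested. Of all genes in this test 0.0240% were called. Without Fpr2f/f replicate 2 the Tead1 and Tead3 differences were −0.13 and 0.56, and without alignment of the libraries −0.25 and 0.70. Other alternatives gave larger values or intervals that left out 0. The Tead1 difference was −0.74 (−1.23 to −0.24) without Fpr2f/f replicate 3 and −0.53 (−0.96 to −0.10) without the filter on low counts. That of Tead3 was 1.42 (0.28 to 2.57) without Fpr2f/f replicate 1. No member passed the threshold in these fits. For tuft-like against TA-like cells 0.0895% of all genes and 0 of 8 members were called, and the widest interval was that of Amotl2 (−2.58, from −5.65 to 0.50), which had 10 UMIs in tuft-like cells. This Amotl2 difference was −7.94 (−16.3 to 0.44) without Fpr2VKO replicate 1 and −1.80 without Fpr2f/f replicate 1.

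Other members also had groups that did not overlap within a set of cells, with adjusted p-values well over the threshold where they were tested. In the 9 groups of cells the groups did not overlap for 6 of the 69 tested pairs of member and class (8.70%), against 12.7% of all genes tested in the same cells, so nothing is read from the count. Lats1 in goblet-like cells was at 63.1, 48.4 and 56.1 CPM in the Fpr2f/f and 77.8, 75.5 and 71.8 CPM in the Fpr2VKO libraries, with a log2 fold change of 0.39 ± 0.13 (adjusted p = 0.277). Lats2 in enterocyte-like cells was at 8.17, 10.2 and 6.06 CPM in the Fpr2f/f and 4.07, 4.48 and 4.01 CPM in the Fpr2VKO libraries, with −0.86 ± 0.38 (adjusted p = 0.276). Under the 40% mitochondrial limit the Lats2 fold change was −0.06 and without alignment of the libraries −0.22. Enterocyte-like cells had means of 4983.5 to 8561 UMIs per cell in the Fpr2f/f and 9741.5 to 13895 in the Fpr2VKO libraries. A deep cluster of this class (median of 30065 UMIs) held 23 to 40 cells per Fpr2f/f and 45 to 104 per Fpr2VKO library. The part of these differences in the enterocyte-like values was not tested. Neither kinase gene passed the threshold. Lats2 did not overlap over all epithelial cells either (2.16 against 1.76 CPM, adjusted p = 0.751), nor in stem-like cells (0.83 against 1.28 CPM, 28 UMIs, not tested). Amotl2 in enterocyte-like cells was at 15.7 to 19.3 CPM in the Fpr2f/f and 10.6 to 14.9 CPM in the Fpr2VKO libraries (log2 fold change −0.37 ± 0.25, adjusted p = 0.448). Tead3 in enteroendocrine-like cells was at 4.91 to 8.69 CPM and 10.9 to 13.2 CPM (0.82 ± 0.46, adjusted p = 0.999), on 56 UMIs in all, and under the 40% mitochondrial limit the fold change was 0.17. Tead3 in stem-like cells (−0.56 ± 0.24, adjusted p = 0.527) and Yap1 in Paneth-like cells (−0.45 ± 0.21, adjusted p = 0.618) had unadjusted p-values of 0.027 and 0.039, and their groups overlapped. Without Fpr2f/f replicate 3 the Yap1 fold change in Paneth-like cells was −0.19.

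In the Neurog3-led cluster, the 5 libraries with at least 20 of its cells gave a log2 fold change of 0.67 ± 0.27 for Amotl2 (95% interval 0.13 to 1.22, unadjusted p = 0.016, adjusted p = 1.0). Fpr2VKO replicate 3, with 16 cells and 142.0 CPM, was not in this fit, and with it the Amotl2 fold change was 0.45. Tead2 (0.01 ± 0.62) and Tead1 (−0.14 ± 0.27) had intervals from −1.45 to 1.48 and from −0.67 to 0.40.

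The rest of the pathway was read from 4 lists, and 0 of their genes were called in any class by edgeR with the filters used throughout. Some alternatives called a few. Under the 10% mitochondrial limit the targets Ccn1 (log2 fold change 1.07, adjusted p = 0.0154) and F3 (0.69, adjusted p = 0.0426) and the gene Ndrg1 (0.62, adjusted p = 0.0428) were called over all epithelial cells, with 0.872% of all genes called there. In enterocyte-like cells Ndrg1 was called by DESeq2 (0.94, adjusted p = 0.0231), without the filter on low counts (0.97, adjusted p = 6.56e-05) and with the replicate block (0.98, adjusted p = 0.000538), and Wwc2 with the block (−1.56, adjusted p = 0.0489). These fits called 0.620%, 1.82% and 7.63% of all genes. With the block Ccn1 was called in Paneth-like cells (1.00, adjusted p = 0.0149), with 0.374% of all genes. Nothing is read from these few calls about the lists. The kinase cassette and adaptors (16 genes, 15 matched; Map4k6 was not matched) gave 130 tests over the 9 groups of cells, 8 of them with an unadjusted p under 0.05, and class medians of the log2 fold change from −0.11 to 0.11. Upstream polarity and junction proteins (15 genes) gave 103 tests, 5 under 0.05, and medians from −0.28 to 0.09. Other YAP, TAZ and TEAD binding proteins (15 genes) gave 83 tests, 7 under 0.05, and medians from −0.10 to 0.20, and YAP and TAZ target genes (20 genes) gave 80 tests, 4 under 0.05, and medians from −0.27 to 0.32. The medians of all genes tested lay between −0.01 and 0.00 in these classes. The shares under 0.05, from 4.85% to 8.43%, lay near or below the 8.30% of all genes. Only 80 of the 180 pairs of target gene and group of cells had enough UMIs to test.

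Genes of high level in each list were spread differently over the classes. In the kinase cassette, the kinase gene Taok3 (127 ± 8 CPM over all epithelial cells) had its highest mean in enterocyte-like cells (206 ± 33 CPM), Mob1a (88.0 ± 15.5 CPM), a LATS adaptor, in TA-like (126 ± 17 CPM) and stem-like cells (124 ± 18 CPM), and Taok1 (84.9 ± 10.03 CPM) in enteroendocrine-like cells (144 ± 17 CPM) among the named classes. Taok3 was above the next class, tuft-like cells (196 ± 28 CPM), in 4 of 6 libraries, Mob1a above stem-like cells in 2 of 6 and Taok1 above enterocyte-like cells in 5 of 6. Of the upstream proteins, the atypical cadherin gene Fat1 (98.9 ± 7.3 CPM) had its highest mean in enterocyte-like cells (170 ± 23 CPM) and the polarity gene Dlg1 (84.6 ± 12.9 CPM) in enteroendocrine-like cells (139 ± 32 CPM), each above the next class in 4 of 6 libraries. The 14-3-3 genes Ywhaz (513 ± 64 CPM), Ywhae (406 ± 39 CPM) and Ywhah (263 ± 44 CPM) led the binding proteins and were at 135, 93.7 and 39.9 CPM in Paneth-like cells, their lowest class. Among the targets, Gadd45a was highest in enteroendocrine-like cells of the named classes (328 ± 81 CPM), Crim1 (49.5 ± 6.6 CPM) in goblet-like cells (113 ± 12 CPM) and Dock5 (44.7 ± 5.3 CPM) in enterocyte-like cells (85.0 ± 13.5 CPM), each above the next class in 6 of 6 libraries. Of the 20 targets, 8 were under 1 CPM over all epithelial cells.

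Free RNA sets how far a low level can be read. Yap1 (25.4 ± 1.9 CPM in free RNA), Tead1 (27.0 ± 4.4 CPM), Lats1 (25.3 ± 2.5 CPM) and Vgll4 (48.0 ± 3.8 CPM) were above this level in the epithelial cells of 6 of 6 libraries. Wwtr1, Tead2, Tead4 and Amotl2 were above it in 1 to 4 libraries, and Lats2 and Tead3 in 0. Yap1 in enteroendocrine-like, Paneth-like and Neurog3-led cells, Tead1 and Lats1 in Paneth-like cells, and Vgll4 in enterocyte-like and Paneth-like cells had means under the free RNA level, and Vgll4 in enteroendocrine-like cells was close to it. Levels near or under the free RNA level are not separated from background by this comparison. The share of free RNA among the UMIs of a cell was not measured, so the free RNA level is not itself the background of a cell. In immune-like cells Yap1 (5.98 CPM) and Tead1 (6.38 CPM) lay under their free RNA levels, and Lats1 (39.9 CPM) and Vgll4 (219 CPM) above theirs. A class mean can pool unlike clusters. In the largest enterocyte-like cluster (1310 cells) Vgll4 over all libraries was at 77.2 CPM, above its free RNA level. Tead3 was at 18.5 CPM there and at 20.7 CPM in the largest TA-like cluster (1248 cells), against 11.6 CPM in free RNA. Of the 6 sparser genes, Wwtr1 and Tead4 in goblet-like cells and Amotl2 in enterocyte-like, goblet-like and enteroendocrine-like cells were above the free RNA of the same library in 6 of 6 libraries, and no other named epithelial class was for these genes. Amotl2 and Tead2 in the Neurog3-led cluster were also above their free RNA levels of 8.22 and 1.88 CPM.

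In genome coordinates of mm10 (GRCm38, GENCODE vM21), Yap1 lies at chr9:7931999-8004596 on the minus strand and Wwtr1 at chr3:57455649-57575910 on the minus strand. Tead1 (chr7:112679318-112906807, plus strand) and Tead2 (chr7:45215753-45233644, plus strand) share a chromosome, Tead3 lies at chr17:28331671-28350817 and Tead4 at chr6:128224288-128300823, both on the minus strand. Lats1 lies at chr10:7681214-7716460 (plus strand), Lats2 at chr14:57689662-57758388 (minus strand), Amotl2 at chr9:102716672-102733418 (plus strand) and Vgll4 at chr6:114860628-114969994 (minus strand). Beside Lats2, exons overlapped those of another gene for Yap1 (1.25% of its exon bases, with Gm20416) and Tead2 (0.272%, with Cd37), on the opposite strand in both cases.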

How the data were processed

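Per the study's methods, the authors aligned the MobiNova-100 reads to mm10 with MobiVision and summed UMIs per barcode, and the submitters' notes name Seurat 4.0.0. The deposited matrices hold raw UMI counts of 32285 genes for all 2359296 possible barcodes of each of the 6 libraries, without a cell annotation. How strand was used in counting is not given in the sources used here.

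Libraries held 90142126 to 189516114 UMIs, of which the kept cells held 26540424 to 52349750. Any 2 libraries differed by a chi-square of at least 40.2 per gene, so none was a copy. Cells were aligned between libraries by mutual nearest neighbours on 2000 variable genes and clustered with leidenalg 0.10.2 (resolution 1) under Python 3.11.15. Clusters were named from marker lists. This required a mean log2 fold of at least 0.5, 3 detected markers and a class marker among the leading genes. Clusters that met the other limits without such a leading marker stayed unnamed. A cluster of 39 immune-like cells was an exception, named at a mean log2 fold of −0.767. Free RNA and doublets were not removed. UMIs were summed per library and class of at least 20 cells and tested with edgeR 4.0.16 (R 4.3.3, TMM, filterByExpr, quasi-likelihood, two-sided, Benjamini-Hochberg over all genes tested). The library was the replicate. DESeq2 1.42.0, other filters, clustering and libraries left out were the alternatives, and the tests were tested on simulated data. Limits for a count of 0 are 3 UMIs, and intervals and limits of shares cover counting error only. The text names all 10 members, the 3 genes of highest level in each pathway list and the 3 genes most like each member with at least 1000 UMIs. Of the genes this rule or the cluster's leading genes would name, 2 are not reported here. The members and lists were chosen with earlier results of these data known.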

Additional observations from a re-analysis of the deposited data

Results flagged for a closer look

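A pair of members had signal in cells that no comparison of the report used. In the 333 immune-like cells, Lats2 was at 184 CPM over the 6 libraries together (95% interval for counting error 168 to 202, 462 UMIs in 203 cells), against 6.16 CPM in enterocyte-like cells, its highest epithelial class. Vgll4 was at 219 CPM in the immune-like cells (201 to 238, 549 UMIs in 215 cells), against 105 CPM in stem-like cells. The same immune-like cells held 0 UMIs of Wwtr1, which allows up to 1.196 CPM, and 15 of Yap1 (5.98 CPM). The part of immune-like cells in the epithelial levels of Lats2 was not tested, and the 10 immune markers summed to 5.23 to 17.4 CPM over the epithelial cells of a library.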

How the results depend on the processing

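The count of called members kept to 0 in 137 of 139 alternatives. In stem-like cells it was 1 without the filter on low counts and 1 with the replicate block, each time Wwtr1, where 0.616% and 1.08% of all genes were called. Under the strict 10% mitochondrial limit TA-like and tuft-like cells were too few in Fpr2VKO libraries for a fit, and Wwtr1 in stem-like cells did not pass the filter there or after doublet removal. The highest class was the same for 5 of 10 members under the 10% limit, where only 4 classes could be compared, and for 7 to 10 with 1 library left out. Of 248 alternatives for 19 fold changes, 228 kept direction and side of the threshold. Under the 40% limit the fold changes of Yap1 (−0.016), Tead1 (−0.016) and Vgll4 (−0.051) over all epithelial cells, of Amotl2 in enteroendocrine-like cells (0.63) and of Tead1 in tuft-like cells (−0.070) reversed. There the Neurog3-led cluster was named enteroendocrine-like, and Amotl2 in that class was at 63.5 CPM. Under the 10% limit Yap1 over all epithelial cells (−0.15) and Tead3 in stem-like cells (0.13) reversed, and with all 6 libraries Tead2 in the Neurog3-led cluster was −0.21. With 1 library left out the ranges were −0.030 to 0.079 for Yap1 and −0.0074 to 0.11 for Tead1 over all epithelial cells, −0.30 to 0.44 for Tead1 in tuft-like cells, and −0.75 to 0.54 for Tead2 and −0.34 to 0.089 for Tead1 in the Neurog3-led cluster. The cause of these changes was not tested, and neither was the part of the Neurog3-led cluster in the Amotl2 reversal. Mean Amotl2 in that cluster ranged from 172 to 288 CPM and Tead2 from 59.4 to 88.1 CPM over other filters and clusterings. Calls over all genes moved far more, from 1 to 180 over all epithelial cells, 1 to 139 in stem-like, 1 to 150 in TA-like, 1 to 775 in enterocyte-like, 1 to 52 in Paneth-like, 9 to 75 in goblet-like, 0 to 18 in enteroendocrine-like, 1 to 11 in tuft-like and 1 to 122 in unnamed cells. Same-numbered libraries shared only a number: their deviations correlated at −0.0067, 0.026 and 0.40 over all epithelial cells, and not every library matched its own number best. In stem-like cells, where the block changed a call, they correlated at 0.085, 0.125 and 0.163 and each matched its own number best, a hint from the data and not from the design. The block and other alternatives also called single genes of the pathway lists, as given with those lists. Depth limits Wwtr1, Tead2, Tead4 and Lats2 most, with 363 to 571 epithelial UMIs each.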
